A study of Mus musculus with 6 samples.

Results

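The genes described here are 9 members of the myelin and proteolipid group, Mbp, Mog, Mag, Mobp, Cnp, Mal, Cldn11, Ugt8a and Gpm6b, measured in the cerebral cortex of mice. They were found as every probe set whose gene symbol entry names 1 of them, which gave 26 of the 45077 probe sets on the array and 9 of the 22527 gene symbols. Each probe set sums up a handful of short probes against a transcript, and a gene may have more than 1. The members were chosen with the group means of these arrays already known, so their levels and differences are a description and carry no test. RNA came in 6 biological samples of male mice, 2 in each of 3 groups, each on an Affymetrix mouse genome PM array of its own. Whether a sample came from a single mouse is not stated. SAMR1, the senescence-accelerated mouse resistant strain, served as the normally aging group and was given Milli-Q water. SAMP8, the senescence-accelerated mouse prone strain, was given water as well (SAMP8 control) or a sugarcane top ethanolic extract by mouth at 20 mg/kg (STEE-fed SAMP8), for 30 days and then through 8 days of behavioral tests. The labels give an age of 16 weeks, which in the methods is that of the mice before acclimatization and treatment, so they were older when the cortex was taken. All mice were housed singly and, according to the methods, all received the nucleoside label BrdU in drinking water. The contrast of SAMP8 control and SAMR1 is therefore between strains, and that of STEE-fed SAMP8 and SAMP8 control is between treatments within a strain. Only group means were used, so no replicate error can be put on any level below. Mbp and Gpm6b are also among the genes that the study displayed from these arrays.

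Myelin is the stack of membrane that oligodendrocytes wrap around axons in the central nervous system. It is rich in galactolipids and is held together by a small set of very abundant proteins, and the transcripts of these proteins are among the most oligodendrocyte-specific in brain tissue. Their genes are switched on together as a precursor cell matures, under transcription factors that include SOX10 and MYRF. In the cortex most myelin lies in the deep layers and in the white matter beneath them, so the amount of myelin RNA in a cortical sample also varies with where the tissue was parted from white matter. Fewer oligodendrocytes and less myelin RNA per oligodendrocyte cannot be told apart in RNA of whole tissue.

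The promoters of 4 members, Mobp, Mag, Cnp and Gpm6b, are shown, which are the members found to have a window with the motif ACAAAG. Mobp, Mag and Cnp had a lower signal in SAMP8 control, and Gpm6b had nearly the same signal. Windows of Mog, Mal, Cldn11 and Ugt8a held neither motif marked below and are not shown. RefSeq entries on GRCm38.p6 were found for 8 of the 9 members, in 10 windows because Mag has 3 annotated starts, and each run below is the 250 bases before the annotated start of transcription, 5′ to 3′ on the strand of the gene. They are reference genome sequence and were not read from SAMP8 or SAMR1. Capitals mark ACAAAG on either strand, the core that SOX proteins recognise, and CTGGCAC on either strand, a form of the MYRF motif. The Mobp window lies at chr9:120149492-120149741 on the plus strand, the first-listed Mag window at chr7:30914864-30915113 on the minus strand, the Cnp window at chr11:100574689-100574938 on the plus strand and the Gpm6b window at chrX:166238693-166238942 on the plus strand.
Mobp: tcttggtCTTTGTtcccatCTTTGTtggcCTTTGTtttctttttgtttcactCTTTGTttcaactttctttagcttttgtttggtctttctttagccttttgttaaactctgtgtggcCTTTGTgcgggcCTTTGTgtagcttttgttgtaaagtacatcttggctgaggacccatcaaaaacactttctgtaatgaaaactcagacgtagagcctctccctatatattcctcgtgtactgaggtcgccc
Mag: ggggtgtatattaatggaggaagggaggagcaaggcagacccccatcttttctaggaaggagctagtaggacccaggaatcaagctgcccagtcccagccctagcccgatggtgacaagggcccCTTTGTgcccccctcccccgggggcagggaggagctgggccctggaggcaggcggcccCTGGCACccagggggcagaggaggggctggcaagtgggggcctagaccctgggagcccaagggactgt
Cnp: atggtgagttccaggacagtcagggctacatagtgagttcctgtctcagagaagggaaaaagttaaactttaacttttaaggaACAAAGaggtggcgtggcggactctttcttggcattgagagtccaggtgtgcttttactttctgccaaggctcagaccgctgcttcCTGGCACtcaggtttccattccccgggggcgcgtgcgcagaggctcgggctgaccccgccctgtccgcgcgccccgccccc
Gpm6b: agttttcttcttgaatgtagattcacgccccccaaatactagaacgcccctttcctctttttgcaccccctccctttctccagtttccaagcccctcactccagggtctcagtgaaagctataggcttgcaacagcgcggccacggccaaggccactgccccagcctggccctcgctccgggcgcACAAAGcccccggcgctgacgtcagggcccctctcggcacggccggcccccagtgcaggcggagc

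The Mobp window held 6 copies of ACAAAG, all of them read on the strand opposite to the gene. That is the highest number in any of the 32851 RefSeq promoter windows searched, and Mobp was the 1 of them (0.003%) with 6 or more. At least 1 copy was present in 5 of the 10 member windows (Mobp, Cnp, Gpm6b and 2 of the 3 of Mag), against 16.5% of all windows. The motif CTGGCAC was found in 3 of the 10, those of Cnp and the same 2 of Mag, which overlap, against 4.19% of all windows. The Mag window at chr7:30914322-30914571 held neither. The variant CTGGTAC was found in 1 of the 10, that of Mog, against 1.83% of all windows. The E-box CAGCTG, which basic helix-loop-helix proteins can bind, was in 0 of the 10 and in 13.0% of all windows. Both strands were searched, none of the 4 motifs contains another, and they were picked after the sequences had been seen. A match describes letters only, and Gpm6b, whose signal differed least between the strains, carried a SOX core as windows of the lower members Mag, Mobp and Cnp did. The windows of the lower members Mog, Mal and Cldn11 held no SOX core.

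The values are the authors' mean log2 signals of each group, summarised by robust multichip analysis (RMA). A difference of 1 on this scale equals 1 doubling of signal. A difference of at least 0.2, a 1.15-fold change, was counted here as higher or lower. Over all probe sets the median signal was 4.16 in SAMR1 and 4.15 in both SAMP8 groups. Of the 26 member probe sets, 25 had a signal above the median of all probe sets, the exception being a probe set of Mobp. Signals of different probe sets depend on their probes and are not set against each other.

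SAMP8 control cortex had lower myelin signals than SAMR1 cortex in nearly the whole set. Of the 26 probe sets, 21 were lower by at least 0.2 and 0 were higher by that amount, where 6.93% of all probe sets were lower and 6.73% higher. Among the 9 genes, each taken as the mean of its probe sets, 7 were lower and 0 higher, beside 4.37% and 4.99% of all genes. The median difference over the genes was -0.28 on the log2 scale, a SAMP8 control signal of 0.824 times that of SAMR1, and the median over all genes was 0.00. Ugt8a and Gpm6b were the genes that stayed inside 0.2. Since the members were picked with these differences known, nothing is read from the shares.

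**Figure D1:**
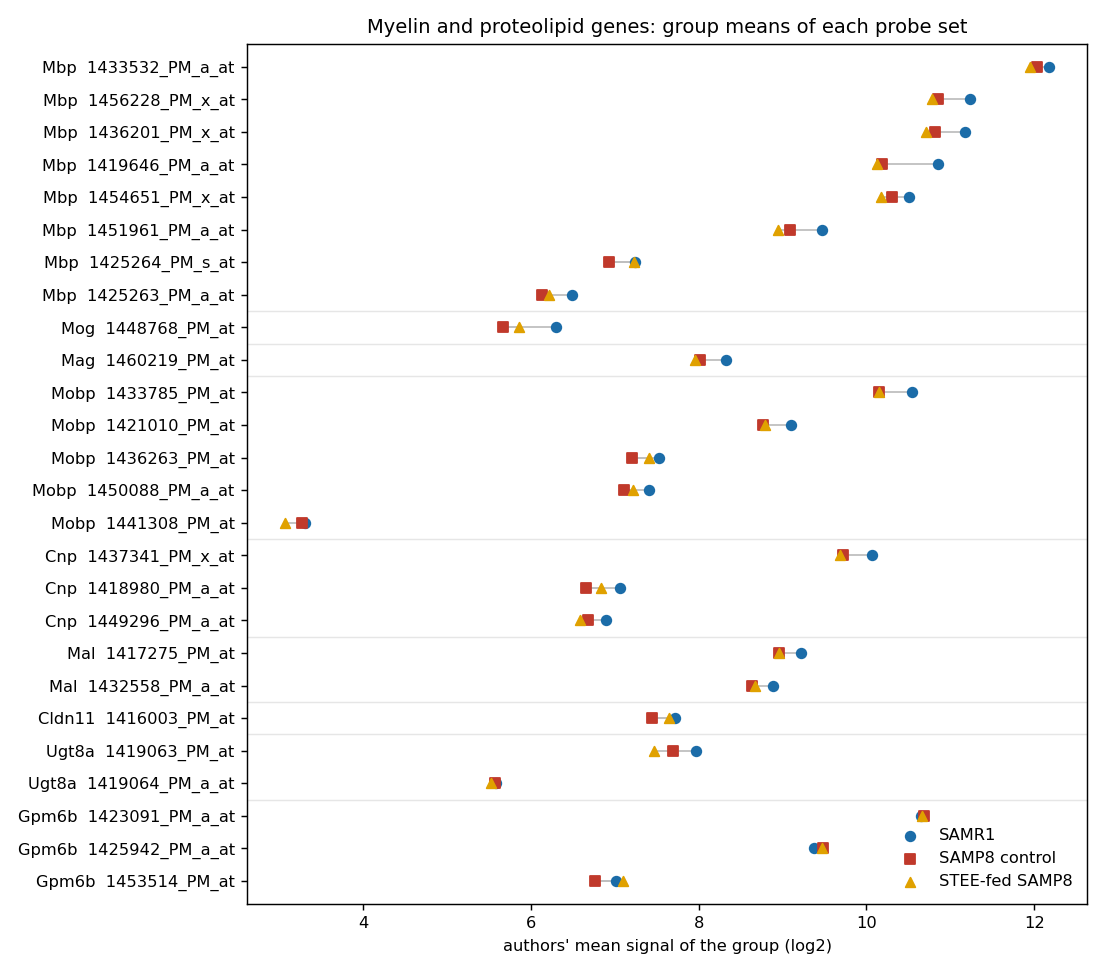
Mean log2 signal (x axis) of each of the 26 member probe sets (y axis, grouped by gene) in SAMR1 (blue circles), SAMP8 control (red squares) and STEE-fed SAMP8 (orange triangles). Each point is the authors' mean over the 2 arrays of a group, and the gray line joins the 3 means. The SAMR1 point lies to the right of the SAMP8 control point in 24 of the 26 probe sets, the exceptions being 2 of Gpm6b.

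The RNA signals of genes for structural proteins of compact myelin were lower in SAMP8 control by similar amounts. Mbp encodes myelin basic protein, which glues the cytoplasmic faces of the membrane together, and had 8 probe sets. All 8 were lower in SAMP8 control, with differences from -0.66 to -0.15 and a gene mean of -0.35 (9.89 in SAMR1, 9.54 in SAMP8 control and 9.51 with STEE). The probe set of largest difference, 1419646_PM_a_at, read 10.85 in SAMR1, 10.19 in SAMP8 control and 10.12 with STEE. The brightest, 1433532_PM_a_at, read 12.18, 12.03 and 11.95 in the same order and had the smallest difference of the 8. Its SAMR1 value was also the highest signal of that group on the whole array. The 3 probe sets whose names mark probes that also resemble other sequences, 1456228_PM_x_at, 1436201_PM_x_at and 1454651_PM_x_at, gave -0.39, -0.35 and -0.21.

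Mobp, myelin-associated oligodendrocyte basic protein, had 4 probe sets with like strain differences and a dim one without. 1433785_PM_at read 10.54 in SAMR1, 10.15 in SAMP8 control and 10.15 with STEE. The other 3 well-measured probe sets differed by -0.34, -0.33 and -0.30 between SAMP8 control and SAMR1. The dim probe set 1441308_PM_at, below the median of the array, read 3.30, 3.27 and 3.07. Mal encodes a small proteolipid of lipid rafts that helps sort myelin proteins to the membrane. Its probe sets gave 9.22, 8.96 and 8.96, and 8.88, 8.63 and 8.67, in SAMR1, SAMP8 control and STEE-fed SAMP8. The strain difference was -0.26 in the first and -0.25 in the other, the closest match between probe sets of any member. Cldn11, the claudin that forms tight junctions between layers of myelin, had a single probe set with 7.72 in SAMR1, 7.44 in SAMP8 control and 7.65 with STEE.

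The genes for surface glycoproteins of the sheath followed. Mog, myelin oligodendrocyte glycoprotein of the outermost layer, had 1 probe set, which read 6.30 in SAMR1, 5.67 in SAMP8 control and 5.85 with STEE. The SAMP8 control signal was 0.646 times that of SAMR1, the largest gene difference of the set at -0.63, and 0.218% of all genes lay as low or lower. Mag, myelin-associated glycoprotein, sits on the innermost layer facing the axon. Its single probe set read 8.33, 8.02 and 7.95 in the same order, so both SAMP8 groups were below SAMR1. Mog, Mag and Cldn11 rest on 1 probe set each, and no other probe set checks them.

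The genes for enzymes differed from one another. Cnp encodes CNPase, an enzyme of the cytoplasmic channels in myelin and an early mark of the lineage, and its 3 probe sets differed by -0.40, -0.34 and -0.21 between SAMP8 control and SAMR1. The brightest of them, 1437341_PM_x_at, whose name marks probes that also resemble other sequences, read 10.06 in SAMR1, 9.72 in SAMP8 control and 9.68 with STEE. The others went opposite ways with STEE. In the same order 1418980_PM_a_at read 7.06, 6.66 and 6.83, and 1449296_PM_a_at read 6.89, 6.68 and 6.58. Ugt8a encodes the galactosyltransferase that makes galactosylceramide, the main glycolipid of myelin, and its probe sets disagreed. 1419063_PM_at read 7.97, 7.69 and 7.47, in steps of -0.28 and -0.22. 1419064_PM_a_at read 5.58, 5.57 and 5.52, nearly level over the groups. The Ugt8a gene mean of -0.15 in the strain contrast is therefore the average of a lower and a level probe set.

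Gpm6b stood apart from the myelin genes. It encodes glycoprotein M6B, a proteolipid family member that neurons and astrocytes make as well as oligodendrocytes. Its 2 brighter probe sets were slightly higher in SAMP8 control. 1423091_PM_a_at read 10.65 in SAMR1, 10.69 in SAMP8 control and 10.66 with STEE, and 1425942_PM_a_at read 9.37, 9.48 and 9.47. The third, 1453514_PM_at, had the opposite course with 7.01, 6.76 and 7.10, a difference of -0.25 between SAMP8 control and SAMR1 and of 0.34 between STEE-fed SAMP8 and SAMP8 control. The latter was the largest STEE difference of any member probe set. A statement about Gpm6b thus depends on which probe set is read, and the gene mean was 9.01, 8.98 and 9.08.

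**Figure D2:**
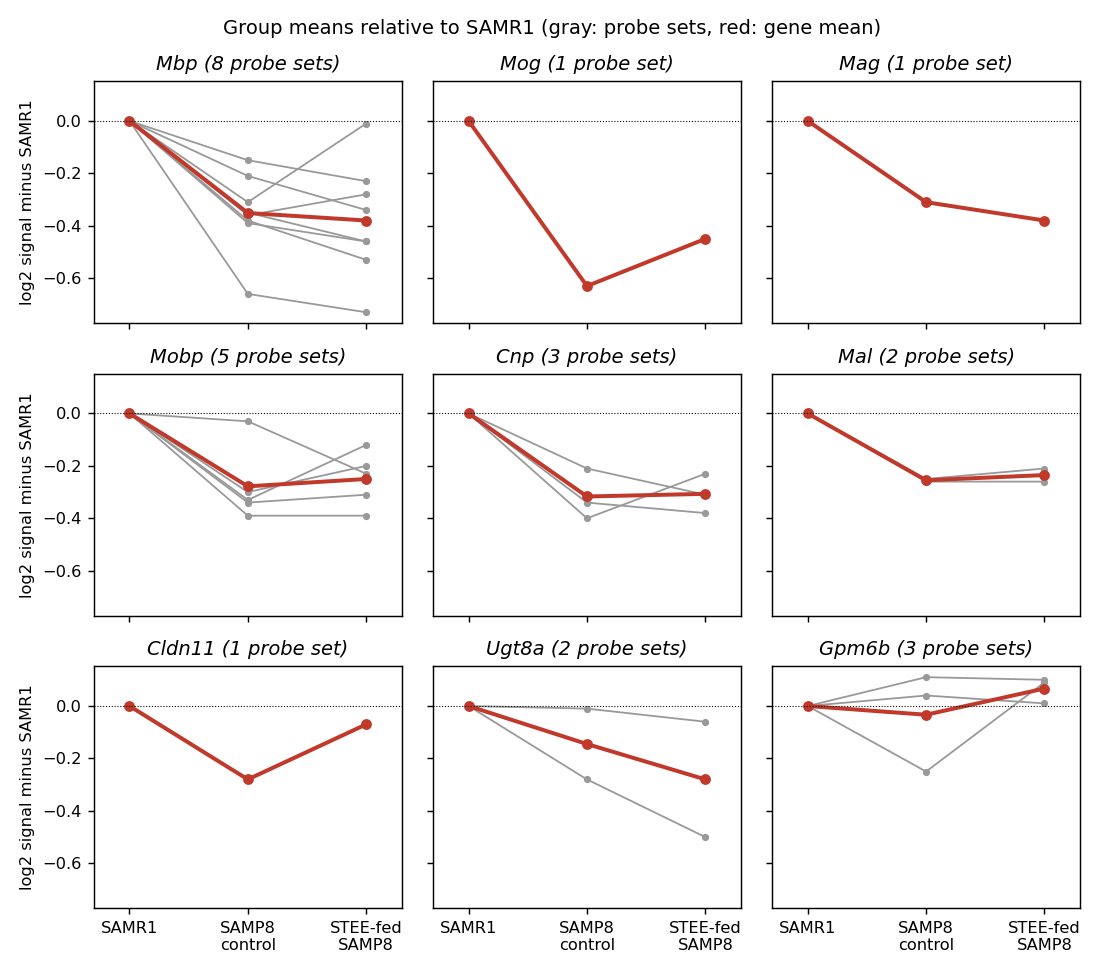
Group means on the log2 scale relative to SAMR1 (y axis) in SAMR1, SAMP8 control and STEE-fed SAMP8 (x axis), one panel per gene. Gray lines are single probe sets and the red line is their mean. The red lines of Mbp, Mag, Mobp, Cnp and Mal drop to between -0.35 and -0.26 in SAMP8 control and stay within 0.07 of that in STEE-fed SAMP8, that of Cldn11 goes back to -0.07, and that of Gpm6b stays between -0.03 and 0.07.

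STEE-fed SAMP8 cortex was close to SAMP8 control cortex in most of the set. Of the 26 probe sets, 2 were lower and 4 higher by at least 0.2, beside 2.91% and 3.15% of all probe sets. By gene, 0 were lower and 1, Cldn11, was higher, beside 1.66% and 2.00% of all genes. The median over the 9 genes was 0.02 and that over all genes 0.00. The 4 higher probe sets were 1425264_PM_s_at of Mbp (6.93 in SAMP8 control and 7.23 with STEE), 1436263_PM_at of Mobp (7.20 and 7.41), the Cldn11 probe set (7.44 and 7.65) and 1453514_PM_at of Gpm6b (6.76 and 7.10). The 2 lower ones were 1419063_PM_at of Ugt8a and the dim probe set of Mobp. The other 7 probe sets of Mbp ranged from -0.15 to 0.08, so the Mbp probe set that was higher was not matched by the rest. It is also the only one of Mbp whose name marks probes shared by transcripts of different genes.

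Mog and Cldn11 were the genes whose lower SAMP8 control signal was followed by the largest upward STEE differences. Mog differed by 0.18 between STEE-fed SAMP8 and SAMP8 control, and 2.73% of all genes lay as high or higher. Cldn11 differed by 0.21, and 1.71% of all genes lay as high or higher. Mbp, Mag and Ugt8a had the other order, lowest in STEE-fed SAMP8, with STEE differences of -0.03, -0.07 and -0.14. The contrasts share the SAMP8 control arrays, so a low mean of those arrays lowers the strain difference and raises the STEE difference of the same probe set.

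Set against SAMR1, STEE-fed SAMP8 cortex also had lower myelin signals. Of the 26 probe sets, 19 were lower by at least 0.2 and 0 higher, beside 6.84% and 8.22% of all probe sets. By gene 7 were lower and 0 higher, beside 4.24% and 6.59% of all genes, and the median was -0.28 where that over all genes was -0.01. Both lists of lower genes hold Mbp, Mog, Mag, Mobp, Cnp and Mal. Cldn11 was lower in SAMP8 control alone (-0.28, against -0.07 in STEE-fed SAMP8) and Ugt8a in STEE-fed SAMP8 alone (-0.28, against -0.15 in SAMP8 control). These contrasts share the SAMR1 arrays, so a high mean of those arrays would lower both. Member probe sets are bright, and brighter probe sets passed 0.2 more often. Among the 22531 probe sets above the median signal, 9.85% were lower in SAMP8 control, beside 21 of the 25 member probe sets there.

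**Figure D3:**
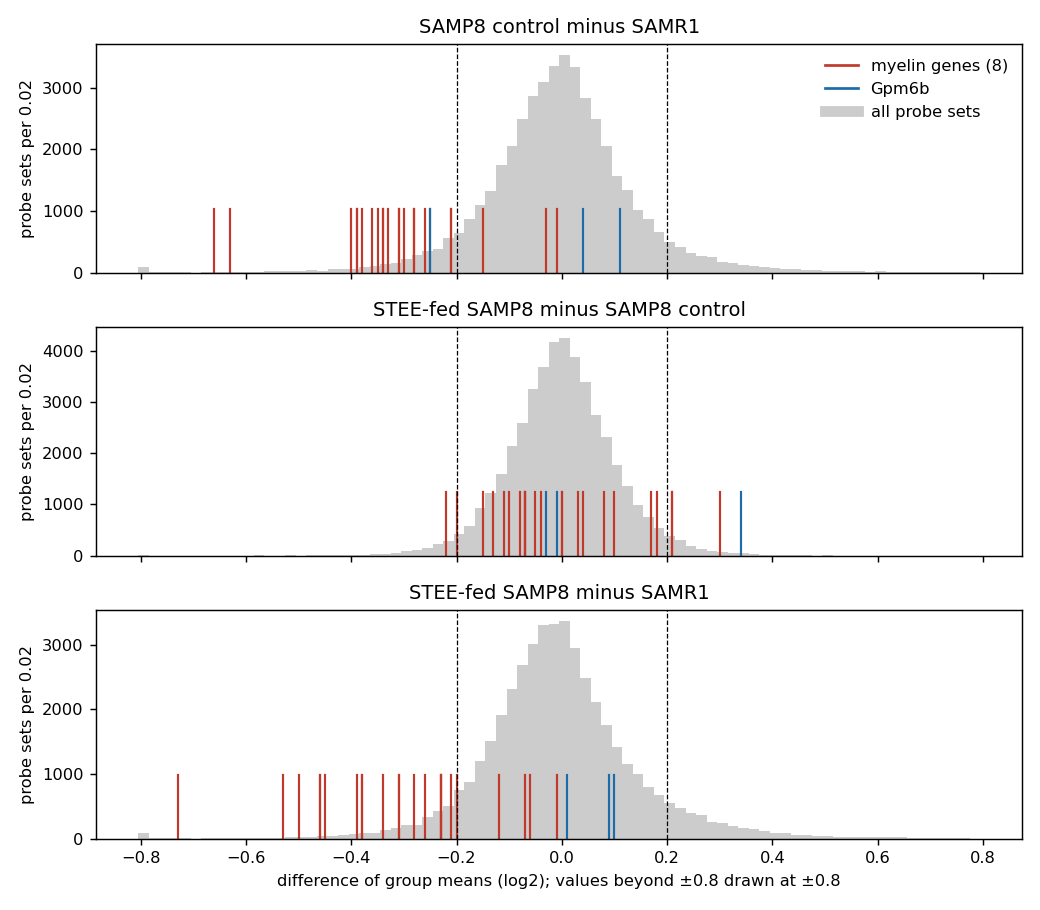
Differences of group means on the log2 scale (x axis) in the 3 contrasts, with the number of probe sets per 0.02 (y axis). Gray bars are all 45077 probe sets, red lines the probe sets of the 8 myelin genes and blue lines those of Gpm6b, and dashed lines stand at -0.2 and 0.2. The red lines lie mostly left of -0.2 in both contrasts with SAMR1 and are spread around 0 for STEE-fed SAMP8 minus SAMP8 control.

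Other genes of mature oligodendrocytes and myelin were lower in SAMP8 control as well, to a smaller extent. Of 23 such genes, 8 were lower by at least 0.2 and 0 higher, with a median difference of -0.11. The 3 largest differences of the list belonged to Aspa, Car2 and Gsn. Aspa, aspartoacylase, which releases acetate from N-acetylaspartate for lipid synthesis, read 6.69 in SAMR1, 6.10 in SAMP8 control and 5.92 with STEE. Car2, a carbonic anhydrase of oligodendrocytes, read 10.06, 9.53 and 9.35. Gsn, the actin-severing protein gelsolin, differed by -0.35 between SAMP8 control and SAMR1. In the STEE contrast 0 of the 23 genes reached 0.2 in either direction, and the median was -0.04.

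Genes of galactolipid synthesis and breakdown, the pathway of Ugt8a, were mixed in the strain contrast. Of 12 genes, 4 were lower and 1 higher, with a median of -0.06. Fa2h, which hydroxylates the fatty acids of myelin galactolipids, read 7.34 in SAMR1, 6.96 in SAMP8 control and 6.88 with STEE. Elovl7, a fatty acid elongase, was lower in all 6 of its probe sets with differences from -0.90 to -0.11. Galc, the lysosomal enzyme that degrades galactosylceramide, was the higher gene, and this came from 1 of 3 probe sets. 1452907_PM_at read 3.65 in SAMR1, 6.67 in SAMP8 control and 6.72 with STEE, while the other 2 differed by -0.31 and 0.08. With STEE, 0 of the 12 were lower and 1 was higher, with a median of 0.02.

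Among 9 transcription factors of the lineage found on the array, 4 were lower and 1 higher in SAMP8 control, with a median of -0.14. Tcf7l2, a Wnt pathway factor of differentiating oligodendrocytes that thalamic neurons also express, had the largest difference at -0.78, and its 4 probe sets ranged from -1.24 to -0.43. Nkx2-2 and St18 differed by -0.44 and -0.37. Of the lower factors, Tcf7l2, Nkx2-2 and Nkx6-2 were dim, with gene mean signals of 3.94, 3.81 and 3.69, below the array median. St18 lay slightly above it at 4.31. The factors whose motifs were searched were nearer to 0, at -0.14 for Myrf and -0.12 for Sox10. Olig2, made throughout the lineage, was the higher one, at 6.06 in SAMR1, 6.30 in SAMP8 control and 6.46 with STEE. Olig1, the brightest factor of the list with a mean signal of 9.38, had a strain difference of 0.11, inside the limit counted. Of 9 genes of oligodendrocyte precursors, 1, the proteoglycan gene Cspg4, was lower and 0 were higher, and the median was -0.02. Ptprz1, a receptor phosphatase, differed by -0.15, and the next of that list, Lhfpl3, by -0.08. In the STEE contrast 0 factors and 0 precursor genes reached 0.2.

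Genes of the node of Ranvier and its flanks, which axons and glia build at gaps in the sheath, had a median strain difference of 0.00, and 0 of 10 were lower or higher. Of 12 relatives of the proteolipids, MAL and claudins, 2 were lower and 1 higher, with a median of 0.02. Gpm6a, the neuronal relative of Gpm6b, read 11.38 in SAMR1, 11.43 in SAMP8 control and 11.46 with STEE. Mal2, a relative of Mal, was the higher one at 8.56, 9.03 and 9.19. Its strain difference of 0.47 was opposite in sign to that of Mal, and its STEE difference of 0.16 was not. Genes of peripheral myelin, made by Schwann cells, gave a median of -0.02 over 5 genes, with 1 lower and 1 higher. Among them Egr2, a Schwann cell factor that also answers neuronal activity, differed by -1.30 between STEE-fed SAMP8 and SAMP8 control.

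The cell types that share the cortex with oligodendrocytes differed less. The neuron markers, which include genes of excitatory neurons and of GABA synthesis, had a list mean of 8.32 in SAMR1, 8.40 in SAMP8 control and 8.43 with STEE. In the strain contrast the higher gene of that list was Gad1, of GABA synthesis, at 0.445. The lower gene was Neurod6, of excitatory neurons, at -0.25. The medians of the strain differences were 0.07 for 10 neuron markers, -0.05 for 8 astrocyte markers, 0.00 for 8 microglia markers and -0.01 for 7 endothelial markers, and in each list at most 1 gene was lower and at most 1 higher. Markers of neighbouring brain regions differed more. Of 9 striatum markers, 9 were higher in SAMP8 control, with a mean over the list of 6.55 in SAMR1, 7.06 in SAMP8 control and 7.10 with STEE. Of 8 choroid plexus markers, 4 were lower and 0 higher, with means of 4.29, 3.86 and 4.06, and Ttr, which carries thyroid hormone in cerebrospinal fluid, read 9.54, 7.52 and 8.69. Of 7 hippocampus markers, 4 were lower and 0 higher, with means of 4.13, 3.93 and 3.92. Among these lower genes Prox1, Dsp and Fibcd1 were dim, with mean signals of 3.10, 3.05 and 3.16, below the array median. C1ql2 lay above it at 4.76. The lower choroid plexus genes Kcnj13 and Otx2 were dim too, at 3.47 and 2.66, while Ttr and Clic6 were above the median. Of 7 thalamus markers, 3 were lower and 0 higher, with means of 5.30, 5.01 and 4.87. The part of tissue composition in the lower myelin signals of SAMP8 was not tested. Among single markers, Ppp1r1b and Drd1a of striatum both differed by 0.87 in the strain contrast and Penk by 0.72. Prkcd and Tnnt1 of thalamus differed by -0.50 and -0.53, and Calb2 by -0.73 with STEE. Unlike the myelin set, Ttr was higher again with STEE, by 1.17.

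**Figure D4:**
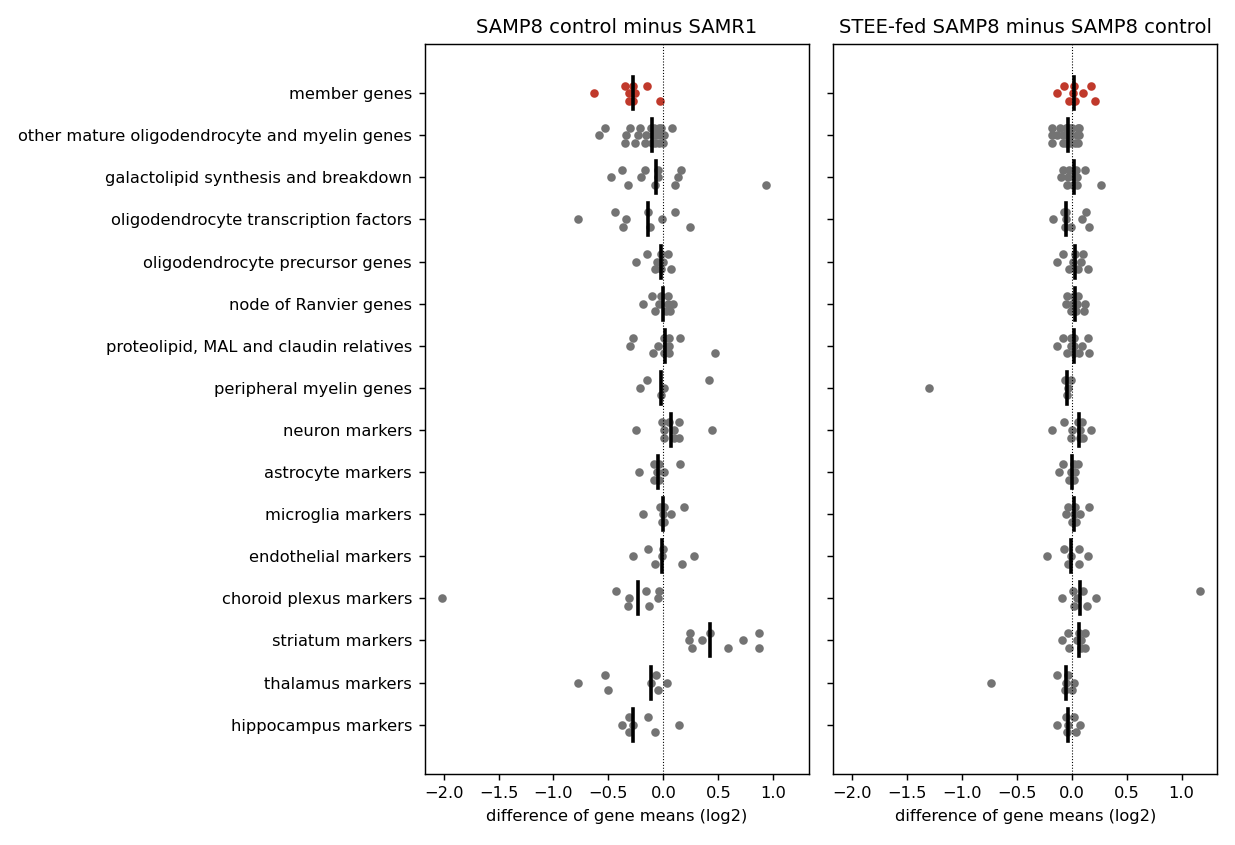
Differences of gene means on the log2 scale (x axis) for SAMP8 control minus SAMR1 (left) and STEE-fed SAMP8 minus SAMP8 control (right), in the member genes (red) and the lists of related genes and markers (gray). Each point is a gene and each black bar the median of its list. In the left panel the member median of -0.28 lies at that of the hippocampus markers and the striatum markers lie to the right of 0, and in the right panel every list median lies within 0.08 of 0.

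A search for genes of the most similar course was made over 3568 genes with at least 3 probe sets and a signal above the median. The members and every gene of the lists were left out of it, so no listed oligodendrocyte gene could appear. Likeness was the Euclidean distance of a gene's strain and STEE differences to the medians of the member genes, which rests on 3 group means. The nearest were Rian, a maternally expressed noncoding RNA (8.03 in SAMR1, 7.74 in SAMP8 control and 7.77 with STEE), Fam189a2 (4.87, 4.59 and 4.62) and Fcgr2b, an inhibitory Fc receptor (4.49, 4.21 and 4.21). Their distances were 0.0035, 0.0075 and 0.018, and 21 of the genes searched lay within 0.05.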

How the data were processed

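Cortical RNA of 6 biological samples was hybridised to PM arrays of the mouse genome (Affymetrix). The authors summarised the scans with RMA (Affymetrix Expression Console) and made their comparisons with Transcriptome Analysis Console (tools named in the methods and in the submitters' processing notes). They deposited 1 table per comparison, and the values used are the deposited log2 group means (named bi-weight averages there), given to 2 decimals. Linear fold changes, ANOVA p-values and FDR p-values of the authors' comparisons are also in these tables and were not used. The SAMP8 control means of both tables were identical.

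Differences of group means were taken per probe set, and a gene was the mean of its probe sets. Entries naming several genes were split. The 2 arrays per group limit the precision of every mean, and with group means alone no test was made. Differences of at least 0.2 were counted. The members and all gene lists were chosen with earlier results of these data known. Of 146 list entries, 144 were matched, 1 of them through a RefSeq synonym (Drd1a), and Zfp488 and Neu4 were not matched. Some genes, such as Pllp, Cldn5 and Tcf7l2, stand on more than 1 list. Genes named are all members, Gpm6a, the 3 largest strain differences of each oligodendrocyte list, markers differing by at least 0.5, and the 3 nearest courses. Genes that this rule also takes in but that are not named are not reported here. Myrf, Sox10, Olig2 and the other genes named beyond this rule were chosen after their values were seen. RefSeq promoters are of GRCm38.p6. Alternatives were other ways of combining probe sets, signal filters, removal of cross-hybridising probe sets, median centring and thresholds of 0.1 and 0.3. Python 3.11.15, numpy 2.4.6, pandas 2.3.3 and matplotlib 3.10.9 were used, and the calculation was tested on simulated data.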

Additional observations from a re-analysis of the deposited data

How the results depend on the processing

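Over 7 other ways of combining, filtering or centring the probe sets, the median over the member genes ranged from -0.31 to -0.27 for SAMP8 control minus SAMR1, from -0.03 to 0.03 for STEE-fed SAMP8 minus SAMP8 control, where its sign was not fixed, and from -0.38 to -0.24 for STEE-fed SAMP8 minus SAMR1. Of 126 values of the 6 genes with several probe sets, 119 moved by at most the SD over the gene's probe sets and 7 by more. The filters kept 25, 25 and 21 of the 26 probe sets, so many genes were left as they were. Most values could thus hardly pass that SD, and the counts are no test of robustness. The 63 values of Mog, Mag and Cldn11, with 1 probe set each, have no such spread, and moved by at most 0.01, as centring alone can alter them. None of these 189 values that had passed 0.2 turned its sign. With the brightest probe set alone, the strain difference of Mbp was -0.15 in place of -0.35. With the median over probe sets, the STEE difference of Mobp was 0.21 in place of 0.03. Lower in SAMP8 control than in SAMR1 were 22 of the 26 member probe sets from 0.1 and 14 from 0.3. Of all probe sets, 21.1% and 2.50% were so. Counting from 0.1 in place of 0.2, 1 of the 26 member probe sets was higher in SAMP8 control than in SAMR1, beside 18.8% of all probe sets. At that threshold 6 were lower and 7 higher with STEE than with water in SAMP8, beside 15.2% of all probe sets in either direction, and 1 was higher in STEE-fed SAMP8 than in SAMR1, beside 19.4%. Counting from 0.3, 0 were lower and 2 higher with STEE than with water in SAMP8, beside 0.595% and 0.668%, and 12 were lower in STEE-fed SAMP8 than in SAMR1, beside 2.53%. These counts follow from the threshold itself. No paired analysis was possible because the tables used hold group means and no value per array, and for the same reason no replicate could be left out. The 2 arrays per group and the missing spread between them limit every difference given here.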
